A study of Mus musculus with 18 samples.

Results

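The subunits of the ionotropic and metabotropic glutamate receptors and of the GABA-A receptor were followed in cultured mouse cortical astrocytes. Members were the protein-coding genes whose symbols are those of the AMPA (Gria), kainate (Grik), NMDA (Grin) and metabotropic (Grm) glutamate receptors or of the GABA-A receptor (Gabr), 43 of the 51912 genes counted. They comprise 4 AMPA, 5 kainate, 7 NMDA, 8 metabotropic and 19 GABA-A genes, and the rule used no measured value. The cultures came from newborn (PD0) cortices of mice carrying the Aldh1l1-EGFP/Rpl10a transgene, in which the astrocyte promoter Aldh1l1 drives a ribosomal protein fused to a green fluorescent protein, and equal numbers of male and female cortices were combined. After 14 d in culture the cells were replated, grown for 6 d, kept without serum for 24 h and then given serum-free medium with 50 mM ethanol or without ethanol for 24 h. Translating ribosome affinity purification with antibodies to the fluorescent protein gave the IP fraction from 6 control and 6 ethanol dishes. RNA of the lysate before purification, the input fraction, was sequenced from 3 of these dishes per treatment, replicates 4, 5 and 6. Every dish carried the transgene, so no group lacked it, and nothing in the sources used here says that the dishes came from separate litters. The p-values therefore measure the spread between dishes, with the spread of each gene drawn toward that of other genes in the fit.

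AMPA, kainate and NMDA receptors are cation channels opened by glutamate, and each is assembled from several subunits. An NMDA receptor needs the Grin1 subunit, and a kainate receptor takes Grik4 or Grik5 only together with Grik1, Grik2 or Grik3. Metabotropic glutamate receptors signal through G proteins, and Grm3 and Grm5 are the members best known from astrocytes. GABA-A receptors are chloride channels that usually combine alpha, beta and gamma or delta subunits and are a known site of action of ethanol in neurons, as are NMDA receptors.

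The stretch that sets calcium entry through AMPA and kainate channels is the pore loop, and the codon at its Q/R site is shown because the AMPA genes that led in these cultures differ from Gria2 in what is known of this codon. It is written in capitals within the coding strand of GRCm38, 5′ to 3′. In neurons the enzyme encoded by Adarb1 edits the Gria2 codon in RNA almost completely, which makes channels with that subunit nearly impermeable to calcium, while Gria1, Gria3 and Gria4 keep the genomic codon. Grik5 is shown beside them as the member with the highest level. Counts per gene carry no information on editing.
Gria1, chr11:57243082-57243108, plus strand: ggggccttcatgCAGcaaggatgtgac
Gria2, chr3:80706899-80706925, minus strand: ggtgcctttatgCAGcaaggatgcgat
Gria3, chrX:41610253-41610279, plus strand: ggtgcttttatgCAGcaaggatgtgat
Gria4, chr9:4464125-4464151, minus strand: ggtgcctttatgCAAcaaggatgtgac
Grik5, chr7:25022485-25022511, minus strand: ggtggcttcatgCAGcagggctcggag
All 5 windows lie within a single coding exon. The codon was CAG in all of them except Gria4, where it was CAA, and both codons encode glutamine.

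The 18 libraries held between 74239854 and 132810705 read pairs on genes (median 84119135). Levels are given as CPM (read pairs scaled to library size with TMM), and genes are compared with each other only as CPM per kb of exon, counted on the annotated strand. Of the 43 members, 38 had at least 10 read pairs over the 18 libraries and were tested, and 18 had a mean of at least 1 CPM. Gabra6, Gabrp and Gabrr3 had 0 pairs in every library, where a count of 0 allows a level of up to 0.0228 to 0.0409 CPM depending on the library (3 pairs, counting error only), and Grm6 (3 pairs in all) was not tested either. Astrocyte markers were abundant, with a summed level of 1515 to 1595 CPM in input and 2383 to 2562 CPM in IP over 10 genes. Neuronal markers summed to 169 to 180.5 CPM in input and 217 to 239 CPM in IP over 15 genes, 8 of them under 1 CPM and 1 of those (Slc17a6) with 0 pairs.

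**Figure D1:**
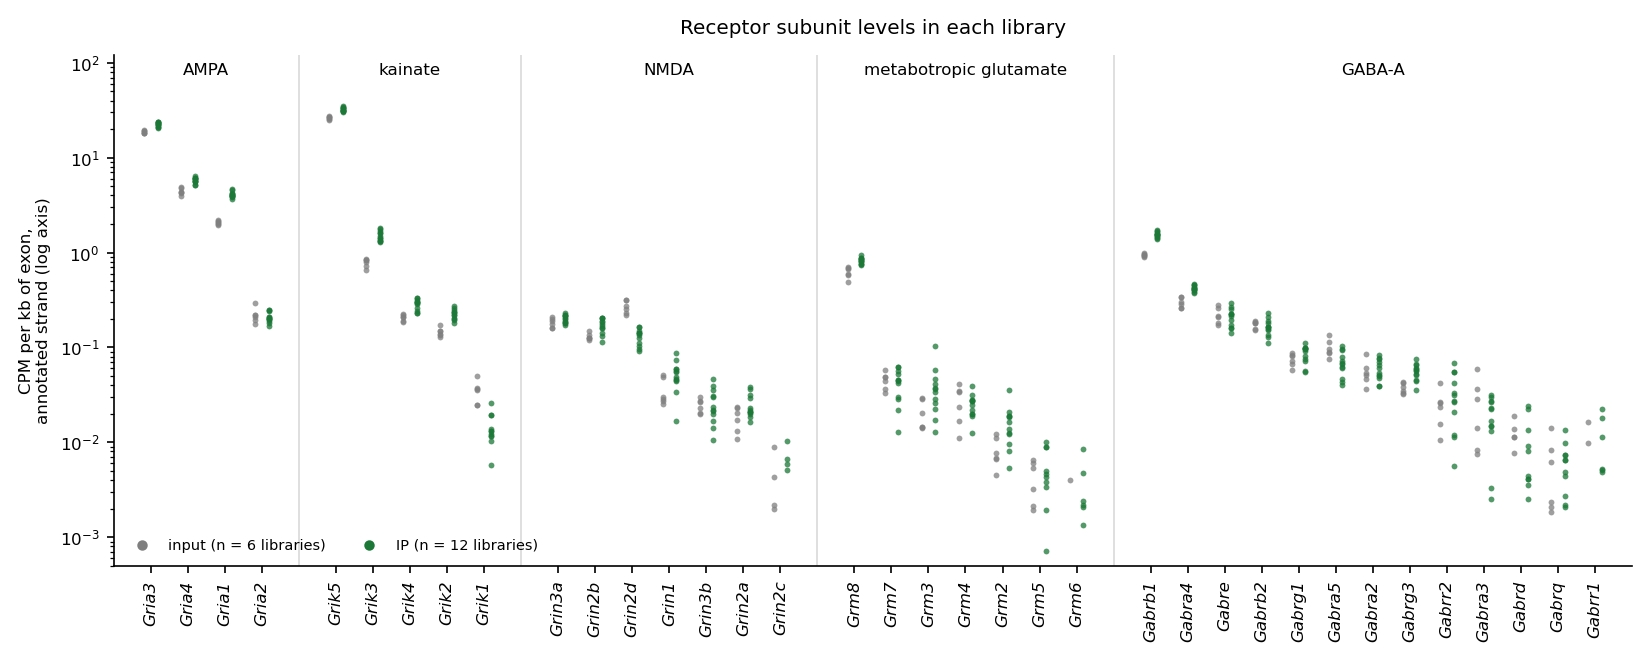
CPM per kb of exon on the annotated strand (log axis) of members with a read pair, by receptor family, in the 6 input (grey) and 12 IP (green) libraries, 1 point per library and libraries at 0 not drawn. Grik5 and Gria3 lie above 18 CPM per kb in all libraries, and no NMDA gene reaches 0.4.

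The AMPA receptor was represented mainly by Gria3, with little Gria2. In the IP fraction Gria3 stood at 22.5 ± 1.04 CPM per kb (SD, n = 12), Gria4 at 5.79 ± 0.373, Gria1 at 4.11 ± 0.288 and Gria2 at 0.208 ± 0.0251. Per kb, Gria3 exceeded Gria2 by 109 ± 10.8 times in IP (n = 12) and 88.1 ± 14.8 times in input (n = 6). The ratio of Gria3 to Gria2 was never below 66.4 in any library, so the order of these levels did not depend on single dishes. Gria3 made up 69.1% ± 0.507 of the summed AMPA level in IP control libraries (n = 6) and 69.0% ± 0.623 in IP ethanol libraries (n = 6), and Gria2 0.648% ± 0.0613 and 0.628% ± 0.0774. Gria3 (ENSMUSG00000001986) spans chrX:41400854-41678601.

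Among the kainate receptor genes the level was almost all Grik5, which encodes a subunit that forms channels only with Grik1, Grik2 or Grik3. Grik5 (ENSMUSG00000003378, chr7:25009849-25072346) was the highest of all members, with 32.4 ± 1.59 CPM per kb in IP (n = 12) and 26.3 ± 0.827 in input (n = 6). Grik3, the leading gene of those that form channels alone, stood at 1.51 ± 0.178 CPM per kb in IP and 0.784 ± 0.0787 in input. Grik4 (0.285 ± 0.0363 in IP) and Grik2 (0.225 ± 0.0275) were lower, and Grik1 had at most 32 read pairs in a library. Grik5 exceeded Grik3 by 21.6 ± 2.02 times in IP and 33.7 ± 2.76 times in input, and it held 93.2% to 95.9% of the summed kainate level in every library.

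NMDA receptor genes were low throughout, and the obligatory subunit Grin1 was lower than several of its partners. Per kb in IP (n = 12), Grin3a stood at 0.201 ± 0.0187 CPM, Grin2b at 0.170 ± 0.0299, Grin2d at 0.131 ± 0.0248 and Grin1 at 0.0522 ± 0.018. Grin2b exceeded Grin1 in all 12 IP and all 6 input libraries, by 3.73 ± 1.72 and 4.00 ± 1.10 times. Grin1 overlaps the antisense gene Grin1os over 1307 bases of exon, and counts without regard to strand left it 391 pairs in all against 740 on its own strand. Grin3b reached 1.24 CPM over the 18 libraries only in the counts without regard to strand. On its own strand it had 136 pairs and on the opposite strand 18505, where its exons overlap those of Tmem259 over 1059 bases, and its level per kb on the annotated strand was 0.0258 ± 0.0107 in IP.

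Of the metabotropic receptors only Grm8, a Gi-coupled member, reached 1 CPM. Grm8 (ENSMUSG00000024211, chr6:27275119-28135178) stood at 0.828 ± 0.0611 CPM per kb in IP and 0.620 ± 0.0809 in input. Grm3, Gi-coupled, had 157 read pairs over all 18 libraries and Grm5, Gq-coupled, 68. Grm8 exceeded Grm3 per kb by 27.6 ± 13.4 times in IP and 32.9 ± 9.73 times in input. Grm7 (0.0421 ± 0.0158 CPM per kb in IP), Grm4 (0.0249 ± 0.00702) and Grm2 (0.0159 ± 0.00795) lay in the range of Grm3 (0.0386 ± 0.0237).

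GABA-A receptor genes differed widely in level. In IP (n = 12), Gabrb1 stood at 1.55 ± 0.105 CPM per kb and Gabra4, the highest alpha gene, at 0.420 ± 0.0276. Gabre (0.211 ± 0.0462), Gabrb2 (0.165 ± 0.0332) and Gabrg1, the highest gamma gene (0.0859 ± 0.0179), were lower. Gabrb1 exceeded Gabra4 by 3.71 ± 0.296 times in IP and 3.21 ± 0.466 times in input. Gabra4 exceeded Gabrg1 by 5.16 ± 1.51 times in IP and 4.01 ± 0.351 times in input. Gabra5, Gabra2, Gabrg3, Gabrr2 and Gabra3 lay between 0.0188 and 0.0695 CPM per kb in IP, and Gabrd, Gabrq and Gabrr1 had at most 7 pairs in a library.

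Most GABA-A genes lie in clusters, and neighbouring genes differed in level. On chromosome 5 a cluster of 4 genes (chr5:70751047-72149037) held Gabrg1, Gabra2, Gabra4 and Gabrb1 at 0.0859, 0.0594, 0.420 and 1.55 CPM per kb in IP. Gabrb1 was the highest of them in all 12 IP and all 6 input libraries, and it is the only gene of this cluster on the plus strand. On the X chromosome (chrX:72255999-72842602) Gabre led Gabra3 and Gabrq in all 18 libraries, and on chromosome 4 (chr4:33062999-33163588) Gabrr2 led Gabrr1 in all 18.

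**Figure D2:**
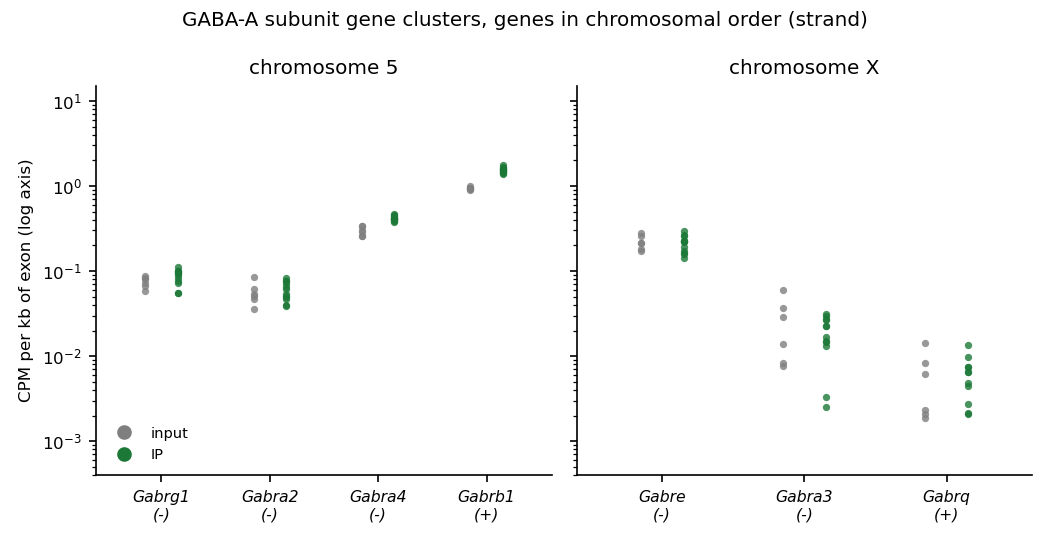
CPM per kb of exon on the annotated strand (log axis) in the GABA-A gene clusters of chromosomes 5 and X, genes in chromosomal order with their strand, 1 point per input (grey) or IP (green) library and libraries at 0 not drawn. Gabrb1 lies above its neighbours in every library, and Gabre above Gabra3 and Gabrq.

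Promoters of 30 of the 43 members were matched in a RefSeq table of GRCm38.p6 that covers the 250 bases before and the 50 bases after each start. Those of Gabra4 and Gabrb1 (of 2 listed for Gabrb1, the one nearest to Gabra4) are shown because these genes start head to head, with exons that overlap over 46 bases on opposite strands, and because both were higher in IP than in input. Those of Grik5 and Grik3 are shown because these kainate genes rose with ethanol in IP. Capitals mark GGGCGG on either strand (CCGCCC when read on the printed strand), the core of the binding sequence of Sp1-type factors. TATAAA was searched in the same way and was found in none of the 4. No match says only that these letters are not in this window.
Gabra4, chr5:71658259-71658558, minus strand: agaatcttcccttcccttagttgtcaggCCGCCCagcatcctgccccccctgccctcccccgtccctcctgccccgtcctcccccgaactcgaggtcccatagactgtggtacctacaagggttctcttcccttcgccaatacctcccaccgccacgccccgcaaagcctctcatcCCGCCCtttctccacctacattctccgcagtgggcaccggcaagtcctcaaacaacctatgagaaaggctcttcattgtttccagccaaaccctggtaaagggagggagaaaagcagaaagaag
Gabrb1, chr5:71657671-71657970, plus strand: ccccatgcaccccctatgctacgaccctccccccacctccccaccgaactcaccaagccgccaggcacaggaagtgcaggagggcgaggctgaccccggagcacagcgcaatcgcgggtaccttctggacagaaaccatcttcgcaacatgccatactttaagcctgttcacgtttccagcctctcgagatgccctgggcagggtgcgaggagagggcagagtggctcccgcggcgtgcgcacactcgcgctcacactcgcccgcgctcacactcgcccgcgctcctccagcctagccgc
Grik5, chr7:25072320-25072619, minus strand: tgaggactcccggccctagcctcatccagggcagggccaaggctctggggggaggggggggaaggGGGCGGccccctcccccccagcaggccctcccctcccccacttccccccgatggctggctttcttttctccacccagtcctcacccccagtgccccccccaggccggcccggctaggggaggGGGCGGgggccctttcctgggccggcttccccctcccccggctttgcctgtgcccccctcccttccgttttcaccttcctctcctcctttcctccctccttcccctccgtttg
Grik3, chr4:125490446-125490745, plus strand: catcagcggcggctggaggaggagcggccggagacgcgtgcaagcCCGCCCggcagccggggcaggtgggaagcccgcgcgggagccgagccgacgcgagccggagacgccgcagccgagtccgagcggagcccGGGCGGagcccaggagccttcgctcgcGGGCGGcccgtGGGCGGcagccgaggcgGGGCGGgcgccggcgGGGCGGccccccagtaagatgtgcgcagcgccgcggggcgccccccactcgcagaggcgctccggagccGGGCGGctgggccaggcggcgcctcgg
GGGCGG occurred 7 times in the Grik3 promoter, 2 times each in those of Grik5 and Gabra4 and 0 times in that of Gabrb1, and 35.6% of all 32817 promoters of this length hold it at least once. TATAAA is held by 13.6% of them. GC content was 82% for Grik3, 72% for Grik5, 66% for Gabrb1 and 58.7% for Gabra4, against a median of 52.7% over all promoters.

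The IP fraction was compared with the input fraction to ask which receptor transcripts are enriched on tagged ribosomes. AMPA and kainate transcripts were mostly higher in IP, and Grin2d was lower. Of the 38 members tested, 15 were higher and 2 lower in IP (edgeR quasi-likelihood test over 18 libraries with a term for treatment, Benjamini-Hochberg adjusted p below 0.05 over 24495 genes), against 25.2% of all genes higher and 25.8% lower (51.0% called). As shares of the members this is 39.5% higher and 5.26% lower, and the median log2 fold change was 0.25 against -0.03 over all genes. In 10 members every IP library lay above every input library and in 1 every IP library lay below, against 13.1% and 11.9% of all genes. Fewer cells of a type in a fraction and less RNA per cell cannot be told apart in these bulk libraries.

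Gria1 (ENSMUSG00000020524), the subunit known for its traffic to the membrane during plasticity, showed the largest rise in IP among the members of at least 1 CPM. Its input libraries stood at 13.0, 13.1 and 14.0 CPM (control) and 13.5, 12.7 and 12.4 CPM (ethanol), and its 12 IP libraries between 23.1 and 29.6 CPM with a median of 25.6. All IP libraries lay above all input libraries (log2 fold change 0.98, SE 0.037, adjusted p = 3.2e-33). Grik3 came next, with 6.08 to 7.95 CPM over the 6 input libraries and 12.04 to 16.8 CPM in IP, again without overlap (log2 fold change 0.93, SE 0.063, adjusted p = 1.8e-12).

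The more abundant Gria3 and Grik5 rose less. Gria3 moved from 185.1 to 198.9 CPM in input to 213.4 to 246.2 CPM in IP (log2 fold change 0.26, SE 0.02), and Grik5 from 133.2 to 146.3 CPM to 160.9 to 189.3 CPM (0.30, SE 0.022). Neither overlapped between fractions. Gria4 (0.39, SE 0.036), Grik2 (0.62, SE 0.08) and Grik4 (0.46, SE 0.094) also rose in IP without overlap, and Grik5 and Gria3 kept the highest levels in both fractions.

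Among GABA-A genes, Gabrb1 rose from 12.9 to 14.6 CPM in input to 19.9 to 25.2 CPM in IP (log2 fold change 0.71, SE 0.037) and its head-to-head neighbour Gabra4 from 1.61 to 2.15 CPM to 2.34 to 2.97 CPM (0.50, SE 0.078). The fractions did not overlap for either gene of this shared start region. Grm8 rose from 5.06 to 7.27 CPM to 7.54 to 9.78 CPM (0.42, SE 0.048) without overlap.

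NMDA genes moved in both directions. Grin2d, a subunit known from developing neurons and interneurons, fell in IP by 1.02 on the log2 scale (SE 0.107, adjusted p = 2.6e-13), from 1.40, 1.56, 1.70, 1.90, 2.13 and 1.47 CPM in the input libraries to 0.499 to 1.01 CPM in IP, and all 12 IP libraries lay below all input libraries. Of the one-strand pairs on Grin2d, 26.2% lay on the opposite strand, where Gm45441 overlaps it, and on the annotated strand alone the log2 fold change was -1.04 (SE 0.106). Grin2b rose by 0.37 (SE 0.114, adjusted p = 0.010), with 9 of 12 IP libraries above the highest input library. Grin3b was called higher (0.32, SE 0.11, adjusted p = 0.011), but on its own strand the value was 0.09 (SE 0.373, adjusted p = 0.87), and without input control 4 it was 0.24 (adjusted p = 0.072). Grin1, not called in counts without regard to strand (0.45, SE 0.248, adjusted p = 0.13), was called on the annotated strand (0.57, SE 0.22, adjusted p = 0.028). The same held for Grin2a, at 0.43 (SE 0.189, adjusted p = 0.054) without regard to strand and 0.44 (SE 0.189, adjusted p = 0.047) on the annotated strand.

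The other 4 members of at least 1 CPM were not called between fractions, with 95% intervals of the log2 fold change of -0.23 to 0.09 for Gria2, -0.01 to 0.28 for Grin3a, -0.32 to 0.13 for Gabrb2 and -0.30 to 0.16 for Gabre. Of the 20 tested members under 1 CPM, 2 were higher and 1 was lower in counts without regard to strand. Gabrg3 (0.59, SE 0.153) and Grm3 (0.87, SE 0.378, adjusted p = 0.048) were higher in IP. The Grm3 call was lost in 12 of the 18 fits that each left out a single library (edgeR adjusted p of 0.033 to 0.14 over the 18) and when a block for the dish was fitted to the 12 libraries from dishes that gave both fractions (0.87, SE 0.486, adjusted p = 0.14). Grik1, the kainate subunit known mainly from interneurons and sensory neurons, fell by 1.37 (SE 0.303), from 0.174 to 0.362 CPM in input to 0 to 0.183 CPM in IP. Gabra5 was not called in counts without regard to strand (-0.46, SE 0.239, adjusted p = 0.10). On the annotated strand Gabra5 was called lower (-0.55, SE 0.221, adjusted p = 0.032).

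**Figure D3:**
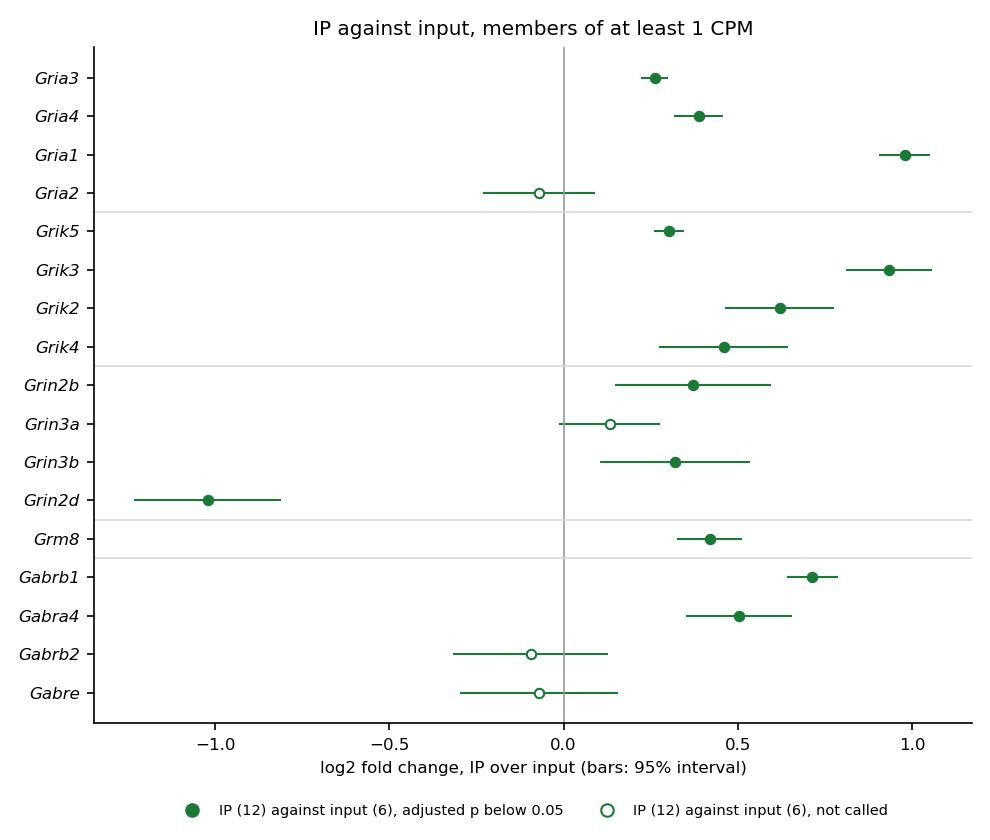
Log2 fold change of IP (12 libraries) over input (6 libraries) for 17 members of at least 1 CPM, with 95% intervals as bars and filled points for an adjusted p below 0.05. Gria1 and Grik3 lie near 1, Gria2, Gabrb2 and Gabre span 0, and Grin2d is the single member below 0 that was called.

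Markers of other cells moved with the fraction. Of 10 astrocyte markers, 9 were higher and 1 lower in IP, with a median log2 fold change of 0.61 against 0.25 for the receptor members tested. Of 9 microglia markers, 8 were lower in IP (median log2 fold change -2.44), with a summed level of 74.0 to 89.2 CPM in input and 13.0 to 17.0 CPM in IP. Of 15 neuronal markers 14 were tested, and 7 were higher and 3 (Rbfox3, Gad2 and Elavl4) lower in IP, with most of their summed level from Stmn2 and Map2. Of 10 oligodendrocyte-lineage markers 4, including Olig2, were higher and 4, including Sox10, lower, with sums of 161 to 184 CPM in input and 250.4 to 289 CPM in IP. Endothelial and mural markers summed to 893 to 1365 CPM in input and 1048 to 1758 CPM in IP (3 of 7 tested higher, 2 lower), and fibroblast and meningeal markers to 297 to 312 CPM and 195 to 222 CPM (3 of 8 higher, 4 lower). Their part in the receptor values was not tested.

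The effect of 50 mM ethanol on the receptor transcripts was then compared within each fraction. In the IP fraction 9 of the 38 members tested were ethanol regulated, 7 upregulated and 2 downregulated (edgeR quasi-likelihood test, 6 against 6 libraries, adjusted p below 0.05), and all changes in members of at least 1 CPM were smaller than 0.5 on the log2 scale. Over all 24495 genes 21.4% were called, 11.9% higher and 9.48% lower, so the members' share of 23.7% was near that of all genes. The median log2 fold change of the members was 0.13, against 0.01 over all genes, and 1 member lay higher without overlap between the groups and 0 lower, against 5.09% and 4.87% of all genes (9.96% in all). No NMDA gene was called by edgeR (0 of 7), with 2 (Grin3a and Grin3b) at an unadjusted p below 0.05, and DESeq2 called Grin3a (0.20, adjusted p = 0.048). The Grin3b value took the opposite direction on its own strand (-0.30, SE 0.431, edgeR adjusted p = 0.70).

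The leading AMPA genes rose slightly. Gria3 stood between 213.4 and 232.0 CPM in the IP control libraries (median 223.3) and between 225.3 and 246.2 CPM in the IP ethanol libraries (median 239.3). All 6 ethanol libraries lay above the control mean and 5 above the highest control library (log2 fold change 0.10, SE 0.025, adjusted p = 0.0016). Gria1 stood at 23.1 to 26.3 CPM (median 24.7) in IP control and 25.0 to 29.6 CPM (median 26.4) in IP ethanol, with 4 of 6 ethanol libraries above all controls (0.13, SE 0.038, adjusted p = 0.0082). Its call was lost without IP control 4 (0.10, adjusted p = 0.060) or IP ethanol 3 (0.09, adjusted p = 0.067). Gria4 (0.09, 95% interval 0.02 to 0.17, adjusted p = 0.063) and Gria2 (0.05, interval -0.11 to 0.21) were not called.

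Both kainate genes with more than 10 CPM rose in IP. Grik3 stood between 12.04 and 14.1 CPM in IP control (median 12.6) and between 13.4 and 16.8 CPM in IP ethanol (median 15.5), with 5 of 6 ethanol libraries above all controls. Its log2 fold change of 0.27 (SE 0.046, adjusted p = 6.0e-06) was called also among replicates 1 to 3 and among replicates 4 to 6 alone. Grik5 stood between 160.9 and 169.8 CPM in IP control (median 167.3) and between 171.3 and 189.3 CPM in IP ethanol (median 180.1). It was the only member without overlap between the groups (0.12, SE 0.024, adjusted p = 0.00012) and was called within both sets of 3 replicates as well. Both sets are parts of the libraries of the main fit, so the calls of Grik3 and Grik5 in them are no separate support. Removing each library's dependence on GC content and exon length left Grik5 at 0.03 (adjusted p = 0.24) and Grik3 at 0.22 (adjusted p = 4.0e-05). Exonic GC content is 61.7% for Grik5 and 54.2% for Grik3. Grik4 (0.21, interval 0.01 to 0.41, adjusted p = 0.15) and Grik2 (0.02, interval -0.15 to 0.18) were not called.

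Of the GABA-A genes, Gabre, which encodes the epsilon subunit, rose. It stood at 0.708 to 1.26 CPM in IP control (median 0.837) and 1.07 to 1.44 CPM in IP ethanol (median 1.12), and the groups overlapped through IP control 6, the highest control (0.42, SE 0.133, adjusted p = 0.016). Without IP control 4 the Gabre value was 0.35 (adjusted p = 0.065) and without IP ethanol 6 it was 0.36 (adjusted p = 0.061). Gabrb1, Gabra4 and Gabrb2 were not called, with intervals of -0.04 to 0.13, -0.23 to 0.09 and 0.00 to 0.53.

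The metabotropic genes that were called went in different directions. Grm8 stood at 8.44 to 9.78 CPM in IP control (median 8.95) and 7.54 to 8.71 CPM in IP ethanol (median 8.05), with 5 of 6 ethanol libraries below all controls (-0.15, SE 0.051, adjusted p = 0.027). The call was lost without IP control 3 (-0.13, adjusted p = 0.084), IP ethanol 3 (-0.14, adjusted p = 0.052) or IP ethanol 4 (-0.13, adjusted p = 0.077). Grm3 fell from 0.109 to 0.324 CPM in IP control to 0.041 to 0.117 CPM in IP ethanol (-1.10, SE 0.383, adjusted p = 0.030), which is 9 to 24 read pairs a library against 4 to 12. Grm7 rose from 0.0525 to 0.278 CPM to 0.246 to 0.373 CPM (0.78, SE 0.275, adjusted p = 0.032), or from 4 to 23 pairs to 19 to 38. At these depths single libraries decided both calls. Grm3 was lost without IP control 2 (-1.08, adjusted p = 0.056), IP control 6 (-0.82, adjusted p = 0.17), IP ethanol 3 (-0.97, adjusted p = 0.067) or IP ethanol 6 (-1.03, adjusted p = 0.057). Grm7 was lost without IP control 1, 2, 4 or 5 or IP ethanol 1, 5 or 6, with values of 0.60 to 0.77 and adjusted p of 0.052 to 0.11.

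**Figure D4:**
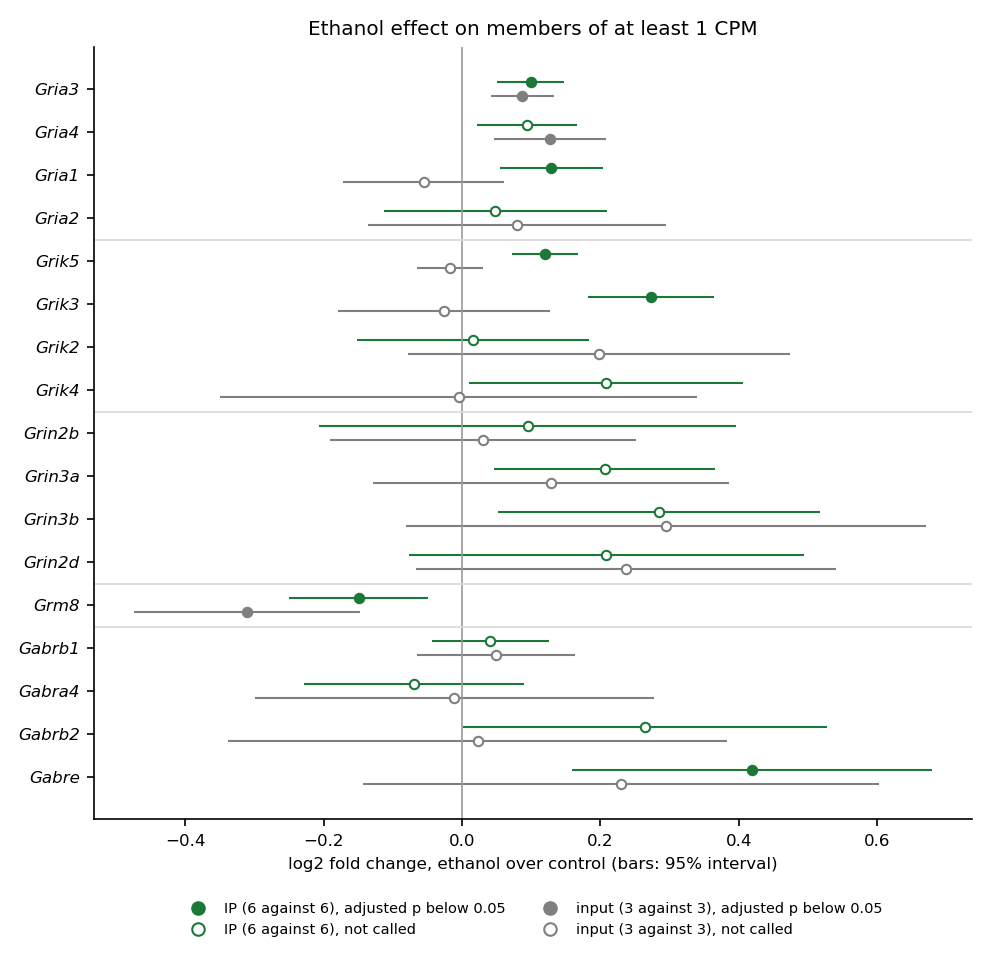
Log2 fold change of ethanol over control for 17 members of at least 1 CPM in IP (green, 6 against 6 libraries) and input (grey, 3 against 3), with 95% intervals as bars and filled points for an adjusted p below 0.05. Gria3 lies above 0 and Grm8 below 0 in both fractions. Grik5, Grik3, Gria1 and Gabre are filled for IP and open for input. In the fit to all 18 libraries the difference between fractions was not called for any of them. With a block for the dish, in the 12 libraries from dishes that gave both fractions, it was called for Grik5. The p-value of that call rests mainly on a spread shared across genes.

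In the input fraction 4 of the 38 members were ethanol regulated, 3 upregulated and 1 downregulated (edgeR quasi-likelihood test, 3 against 3 libraries). This is 10.5% of the members, against 15.0% of all genes (7.21% higher and 7.78% lower). The median log2 fold change of the members was 0.02 against 0.00 over all genes. Gria3 stood at 185.1, 186.1 and 187.5 CPM in the control and 198.9, 197.8 and 198.6 CPM in the ethanol libraries, without overlap (0.09, SE 0.023, adjusted p = 0.0022). After the same removal of GC and length dependence its value was 0.05 (adjusted p = 0.11).

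Gria4 stood at 28.8, 25.9 and 28.4 CPM in control and 27.9, 31.2 and 31.9 CPM in ethanol (0.13, SE 0.042, edgeR adjusted p = 0.018), and its groups overlapped through ethanol library 4. DESeq2 did not call Gria4 in input (0.13, adjusted p = 0.096). Gria4 lost its call without input control 5 (0.08, adjusted p = 0.33), input ethanol 5 (0.11, adjusted p = 0.13) or input ethanol 6 (0.09, adjusted p = 0.25). Grm8 fell from 7.27, 6.91 and 7.02 CPM to 5.06, 6.12 and 5.96 CPM without overlap (-0.31, SE 0.083, adjusted p = 0.0024), and without input ethanol 4 the value was -0.23 (adjusted p = 0.083). Over the members 6 did not overlap in the direction of higher and 1 in the direction of lower, against 14.0% and 13.1% of all genes (27.1% in all). No NMDA gene (0 of 7) was called in input by edgeR, with 0 at an unadjusted p below 0.05. DESeq2 called none either, but it gave no adjusted p for Grin1, Grin2a and Grin2c.

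**Figure D5:**
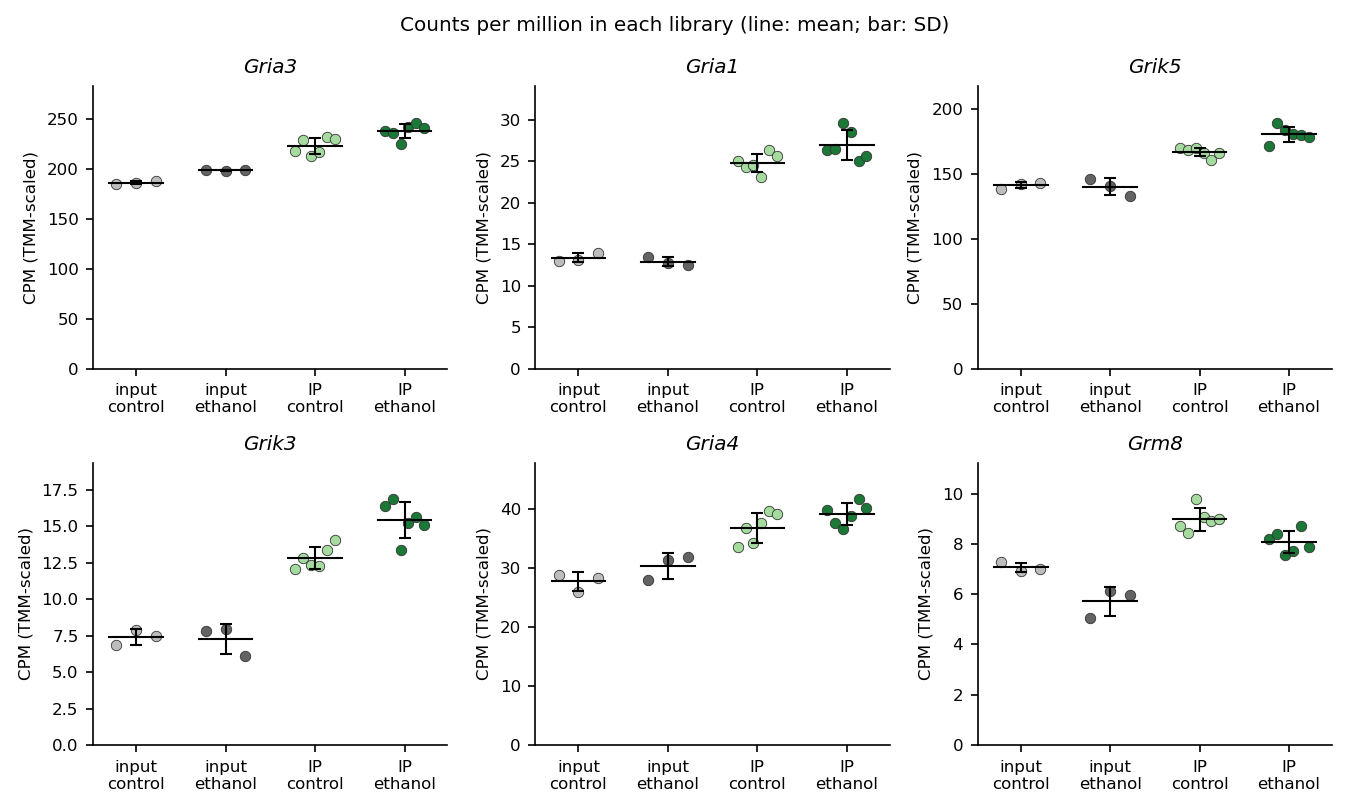
CPM (TMM-scaled) in each library of Gria3, Gria1, Grik5, Grik3, Gria4 and Grm8 by fraction and treatment, with the mean as a line and the SD as a bar (3 input and 6 IP libraries per treatment). Grik5 libraries with ethanol lie above all controls in IP, from 171.3 CPM upward against at most 169.8, and Grm8 libraries with ethanol lie below all controls in input.

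Gria3 and Grm8 were among the 3 members called in both fractions, each in the same direction. The input dishes were among the IP dishes, so these are not separate cultures. An interaction term in the fit to all 18 libraries compared the ethanol effect between the fractions. No member was called (0 of 38) and no gene of the 24495 (0.00%) was called by edgeR, with 5 members and 1459 genes at an unadjusted p below 0.05. DESeq2 called 4 of the 5499 genes that it gave an adjusted p, and 0 members. Among the members it gave one only to Gria3 and Grik5, so it says nothing on a call of the others. By edgeR, Grik5 had the lowest unadjusted p (log2 difference, IP minus input, 0.13, SE 0.04, adjusted p = 0.68), and Grik3 stood at 0.29 (SE 0.1, adjusted p = 0.74) and Gria1 at 0.17 (SE 0.069, adjusted p = 0.79). For Gria3 the interval of the difference was -0.08 to 0.08. When only dishes sequenced in both fractions were kept (6 dishes) and the dish entered as a block, Grik5 was called (0.16, SE 0.036, adjusted p = 0.0083). The p-value of that fit rests mainly on a spread shared across genes, and little on the spread of Grik5 itself between dishes. In the same 12 libraries without the block, a fit chosen after seeing the data, Grik5 was not called (0.16, SE 0.041, adjusted p = 0.11). With the block, 0 members were called once GC and length dependence was also removed.

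Genes that work with these receptors were described as lists, to be read against all genes tested, of which 21.4% were called with ethanol in IP (11.9% higher, 9.48% lower) and 15.0% in input. Of the GABA-B and delta receptor genes, 2 of 4 rose with ethanol in IP, the GABA-B subunit Gabbr1 (0.18, SE 0.025) and the delta receptor gene Grid1 (0.27, SE 0.03), and Grid1 rose in input as well (0.18, SE 0.047). The glycine receptor beta gene Glrb was 1 of 4 tested to rise, in IP (0.29, SE 0.054) and in input (0.30, SE 0.065). Of 19 auxiliary subunit genes tested, 5 rose and 1 fell in IP (median 0.07) and 2 rose and 1 fell in input. Shisa9, an AMPA receptor auxiliary subunit, rose in both fractions (0.26, SE 0.036, and 0.21, SE 0.05), as did Abhd6, a lipase that binds AMPA receptors (0.24 in each). Cnih2, another AMPA receptor auxiliary subunit, fell in IP (-0.28, SE 0.1).

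Of 21 receptor scaffold genes, 6 rose and 0 fell in IP (median 0.07) and 2 rose in input. Dlg4, which encodes the scaffold PSD-95, rose in both (0.17, SE 0.024, and 0.10, SE 0.024), and so did Gabarapl1 (0.11 and 0.10). Of 15 genes that supply or take up co-agonists and GABA, 5 rose in IP and 3 in input. The glycine transporter Slc6a9 showed the largest change of these, from 3.43 to 5.29 mean CPM in IP (0.63, SE 0.07, adjusted p = 1.6e-10) and from 3.75 to 4.71 in input (0.33, SE 0.101). The neutral amino acid and serine transporter Slc1a4 (0.18, SE 0.026) and Maob, which takes part in GABA synthesis from putrescine (0.38, SE 0.072), also rose in IP, and in input by 0.14 and 0.32.

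Of 18 genes downstream of metabotropic receptors, 4 rose in IP and 2 rose and 2 fell in input (medians 0.02 and 0.01). The adenylyl cyclases Adcy2 (0.20 and 0.23) and Adcy5 (0.29 and 0.30) rose in both fractions, and Adcy1 fell in input (-0.19, SE 0.043). Of 3 RNA editing enzymes, Adarb1 rose in IP (0.14, SE 0.04), from a mean of 15.8 to 17.3 CPM. The shares of these lists that were called in IP ranged from 22.2% to 50% against 21.4% of all genes, on lists of 3 to 21 tested genes. In input the shares ranged from 0% to 25% against 15.0%. All genes tested include genes that do not code for protein. At an unadjusted edgeR p below 0.05 in IP were 6766 of 17056 protein-coding genes and 7513 of all 24495. Whether the lists differ from protein-coding genes alone was not tested.

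Between fractions 51.0% of all genes tested were called (25.2% higher in IP, 25.8% lower), and the same lists stood beside this as follows. GABA-B and delta receptors had 3 of 4 higher, among them Grid1 (0.72, SE 0.028) and Gabbr1 (0.48, SE 0.022), and Glrb was lower (-0.31, SE 0.044). Auxiliary subunits had 8 higher and 5 lower of 19, with Shisa6 (0.74, SE 0.027) and the GABA-A auxiliary gene Lhfpl4 (0.58, SE 0.031) higher and the kainate auxiliary gene Neto2 lower (-0.20, SE 0.041). Scaffolds had 13 higher and 3 lower of 21, with Gphn, which encodes gephyrin, higher (0.56, SE 0.029) and Gabarap lower (-0.58, SE 0.02). Supply and uptake genes had 6 higher and 5 lower of 15, with the GABA transaminase Abat higher (0.51, SE 0.019) and the GABA transporter Slc6a11 lower (-1.06, SE 0.156). Genes downstream of metabotropic receptors had 11 higher and 4 lower of 18, and RNA editing enzymes 2 higher of 3, Adar (0.39, SE 0.021) and Adarb1 (0.46, SE 0.036).

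Some marker genes also moved with ethanol, to be read against 21.4% of all genes called in IP and 15.0% in input. Endothelial and mural markers had a summed level, most of it Acta2, of 1294 to 1365 CPM in input control and 893 to 961 CPM in input ethanol libraries. In IP the sums were 1624 to 1758 CPM and 1048 to 1245 CPM. Of 7 of these genes tested, 2 fell and 0 rose in each fraction. Of 10 astrocyte markers, 4 rose and 1 fell in IP and 4 rose and 4 fell in input, with sums of 2383 to 2461 CPM in IP control and 2474 to 2562 CPM in IP ethanol libraries. Of 14 neuronal markers tested, 1 rose and 1 fell in IP (14.3% called) and 3 rose and 1 fell in input (28.6% called). Syp rose and Stmn2 fell in both fractions. Microglia markers summed to 13.2 to 14.4 CPM in IP control and 13.0 to 17.0 CPM in IP ethanol, and 1 of 9 rose in each fraction. Of 10 oligodendrocyte-lineage markers, 2 rose and 1 fell in IP and 3 rose and 1 fell in input. Of 8 fibroblast and meningeal markers, 1 rose in IP, and 1 rose and 1 fell in input. The part of these shifts in the receptor values was not tested.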

How the data were processed

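Primary mouse astrocyte RNA was profiled in 18 libraries, and the study asked which transcripts differ between the IP and input fractions and with ethanol. The authors trimmed the reads with Trimmomatic, aligned them with STAR to GRCm38 and deposited raw read pair counts per gene for each library and as a table of all libraries, with no normalization and no pooling. The table holds the values of the unstranded column of each library's own file (0 differing values), and it was used throughout, and the counts of the annotated strand were used for levels per kb. Pairs mapping to several places (mean 3.60%) and to overlapping genes (mean 5.50%) are not in the counts.

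edgeR 4.0.16 in R 4.3.3 was applied to genes with a total of at least 10 pairs (TMM, glmQLFit with robust estimation, glmQLFTest), with Benjamini-Hochberg adjustment across the 24495 genes tested. DESeq2 1.42.0, other filters and scalings, a fold threshold, removal of GC and length trends, annotated-strand counts, replicate blocks and leaving out single libraries were alternatives. SEs were taken as the absolute log2 fold change over the square root of the F statistic, and 95% intervals are 1.96 SE. In the input fit and the fits with the dish as a block, members' p-values were those of a normal curve for the log2 value over its SE. They rest mainly on a spread shared across genes, and little on a gene's own spread between dishes. CPM per kb used the merged exon length of GENCODE M21, of the same build. Scripts were tested on simulated data without dish structure. The planted changes were larger than any ethanol change in members of at least 1 CPM, so the recovery of changes as small as those was not tested. No 2 libraries of a group agreed within counting noise (lowest chi-square 4.43 per degree of freedom). Input and IP libraries of a dish share replicate number and dish in the labels, and their deviations correlated at 0.049 to 0.182.

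The members and the lists were chosen with earlier results of these data known. Every member of at least 1 CPM, every member called and every list gene called could be named, with list genes given as examples. Some members are not reported here individually and are included only in counts, shares and medians.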

Additional observations from a re-analysis of the deposited data

Results flagged for a closer look

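Among 40 sets of 6 IP libraries examined for a library that stands apart (20 members, each in IP control and in IP ethanol), 2 were found, about as many as the 1 in 20 that chance gives. Both were IP control 6. Its Grin3a level was 2.78 CPM, where the other 5 control libraries lay between 2.25 and 2.44 CPM, and its Grm3 level was 0.324 CPM, where the others lay between 0.109 and 0.185 CPM. The Grm3 value rests on 24 read pairs, and the ethanol effect on Grm3 in IP without this library is given with that gene.

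The ethanol effect on Grik5 differed between the fractions when the 12 libraries from dishes that gave both fractions were fitted with the dish as a block, with a log2 difference (IP minus input) of 0.16 and an adjusted p of 0.0083 (edgeR). In the same 12 libraries without the block, a fit chosen after seeing the data, it was 0.16 (adjusted p = 0.11), and in all 18 without the block 0.13 (adjusted p = 0.68). The p-value of the fit with the block rests mainly on a spread shared across genes, and little on the spread of Grik5 itself between dishes. Over all 18 libraries, Grik5 lay above the control mean in 6 of 6 ethanol dishes in IP and in 1 of 3 in input. Only 3 of those 6 IP dishes were in the fits to 12 libraries.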

How the results depend on the processing

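The number of members called with ethanol in IP, 9, became 0 when tested against a fold of 1.2, 4 among replicates 4 to 6 alone and 3 among replicates 1 to 3 alone, and ranged from 6 to 11 with single libraries left out. In input, 4 became 2 with DESeq2, 2 with trends of GC content and length removed, 0 against a fold of 1.2, and 2 to 4 with single libraries left out (2 without input control 5, input ethanol 5 or input ethanol 6). Between fractions, 17 became 11 against a fold of 1.2 and 16 to 18 with single libraries left out. The difference between fractions, 0, became 1 (Grik5) when only the 12 libraries from dishes that gave both fractions were kept and the dish was a replicate block, and was 0 in those 12 libraries without the block, a fit chosen after seeing the data, and with single libraries left out. In IP against input the same block took away 1 call, Grm3 (adjusted p = 0.14), which those 12 libraries without the block also lost (0.94, adjusted p = 0.075). No called value changed direction under any alternative run. The subsets held fewer libraries than the main fits, and the cause of these changes in the counts was not tested. With the replicate number as a replicate block, 10 members were called in IP (Grm3 was lost, -1.05, adjusted p = 0.058) and 4 in input. Nothing but the number links such control and ethanol dishes, and same-numbered libraries correlated at -0.125 to 0.303 in IP and 0.046 to 0.061 in input. Members under 1 CPM had a median SE of 0.38 in IP and 0.57 in input, against 0.08 and 0.11 for the others, so small changes in them were not detectable at this depth.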
